A study of Mus musculus with 14 samples.

Results

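The transcriptome of granulosa cells (GCs) from db/db mice was compared with that of GCs from the lean controls of the same line (CT db), 4 libraries against 4. These 8 libraries were chosen by their column names in the deposited count table, and they are part of 14 libraries in the series. The other 6 come from the ob model (ob/ob and CT ob) and are used here only where stated. The db/db mice carry a mutation of the leptin receptor gene Lepr on the B6.BKS(D)-Leprdb/J background and become obese on standard chow. The CT db mice are lean littermates of that line. The sample labels and the study's sample table give CT db as wild type (+/+) and db/db as mutant (-/-), but the CT db columns are headed as heterozygous, and this was not settled. All mice were females fed chow until 12 weeks of age. The receptor is defective in every cell of the db/db animal, so the GCs had lived in an obese mouse. Effects in the GC and in the rest of the body cannot be told apart. The paper, citing earlier work, describes disturbed glucose metabolism and high circulating leptin in db/db mice. GCs were released by puncture from antral follicles, and about 50 cells were pooled per library. Polyadenylated RNA was captured on oligo-dT beads and copied by a Smart-seq2 type protocol. From 100 to 200 pg of cDNA entered tagmentation, and single reads of 75 bp were obtained. Nothing in the sources used here says that the 4 libraries of a group came from separate animals. The p-values therefore measure the spread between these libraries, which may be technical in part.

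GCs line the follicle around the oocyte. Under follicle-stimulating hormone they divide and convert androgen from the surrounding theca cells into oestradiol, and they secrete inhibin and anti-Müllerian hormone. After the ovulatory surge they luteinise: they stop dividing, switch to progesterone, and later acquire the receptor for prostaglandin F2α, the signal that ends the life of the corpus luteum. Leptin reaches the follicle through the blood and signals through the long form of its receptor, JAK2 and STAT3.

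The GC identity of the libraries was checked first. All 15 GC markers were detected above the filter on low counts in these libraries, with a summed level of 11070 to 15942 CPM (counts relative to the TMM-scaled library total) in db/db and 11248 to 16918 CPM in CT db. Their median log2 fold change, always given as db/db minus CT db, was -0.10. Inha, the inhibin α subunit, was at 3726, 6222, 5853 and 4834 CPM in db/db and at 3417, 4474, 5712 and 4582 CPM in CT db. The FSH receptor gene Fshr was at 273, 209, 284 and 148 CPM in db/db and at 185, 257, 334 and 316 CPM in CT db. Both genes overlapped between the groups. Cyp19a1, the aromatase that makes oestradiol, was at 104.9 CPM in db/db 3 and at 106.9 CPM in CT db 3 but at 6.58 to 29.9 CPM in the other 6 libraries, so it varied more within each group than between them. The gene for anti-Müllerian hormone, Amh, had a log2 fold change of -1.29 ± 0.60 (SE, n = 4 and 4; unadjusted p = 0.0549 in the edgeR fit), which was -0.62 without CT db 1 and -1.87 without db/db 1, with 40.1 to 194 CPM in db/db and 82.5 to 499.8 CPM in CT db. No marker of this list was called. Serpine2 was the 1 marker with an unadjusted p under 0.05 in edgeR, a share of 6.67% against 7.59% of all genes.

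The db/db libraries held 2204686 to 3059777 counts and the CT db libraries held 3624237 to 4840714, so each db/db library was shallower than each CT db library. A level of 3 counts, the smallest taken as detection, was 0.647 to 1.30 CPM. Correlations of log2 CPM across genes between libraries were 0.926 to 0.968. In db/db 1, 12.8% of the counts came from 18S ribosomal RNA genes, against 1.10% to 1.98% in the other db/db libraries and 1.61% to 8.12% in CT db. CT db 2 stood apart by base composition, as described further on. Lepr itself had 0, 2, 3 and 3 counts in db/db and 1, 6, 2 and 1 counts in CT db, at or near the detection limit in both groups, and no ratio was formed. The db mutation alters the long receptor form, whereas the counts cover the whole gene, so they do not check the genotype labels. Lep had no count in any of the 8 libraries.

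Across the transcriptome the groups were close. Of 11317 genes that passed the filter on low counts, 1 gene, Sfrp4, was called by edgeR's quasi-likelihood test (threshold 0.05 after Benjamini-Hochberg adjustment), which is 0.00884% of the genes tested. Sfrp4 fell, and no gene rose by this test. At an unadjusted p under 0.05, 859 genes (7.59%) were found, of which 382 (3.38%) were higher and 477 (4.21%) lower in db/db. The 4 db/db values lay entirely above the 4 CT db values in 204 genes (1.8%) and entirely below in 262 (2.32%), together 466 genes (4.12%). With library totals only, without TMM, the balance was the other way, with 305 above and 191 below. DESeq2 on the same genes called 44, of which 11 were higher and 33 lower, and 43 of them had groups that did not overlap. The median log2 fold change over all tested genes was 0.01, with quartiles of -0.17 and 0.19. Only 182 genes differed by a log2 fold change of 1 or more in either direction, and 49 of those had groups without overlap. Of the 20 genes with the smallest p, 13 were lower and 7 higher in db/db, and in all 20 of them the groups did not overlap. These 20 genes and the DESeq2 calls were chosen by p from these same libraries, so their lack of overlap adds no separate support.

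**Figure D1:**
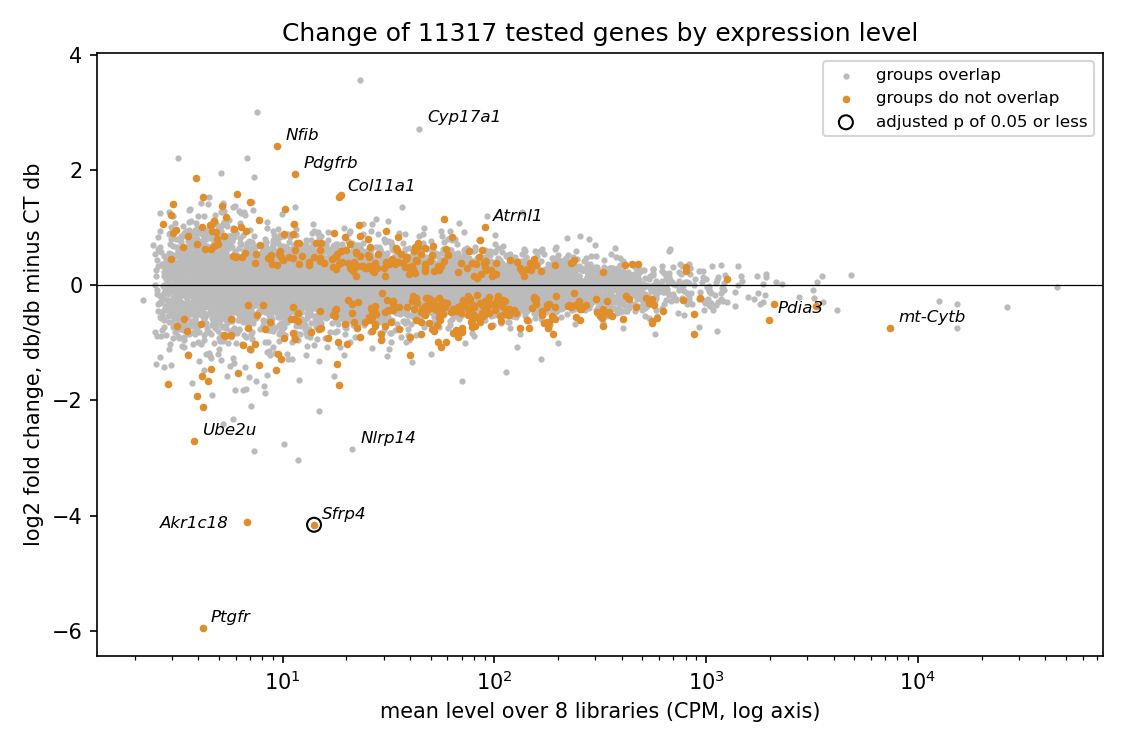
Log2 fold change (db/db minus CT db, vertical axis) against the mean level of each of the 11317 tested genes over the 8 libraries (CPM, log axis). Orange points are the 466 genes whose groups do not overlap, and the circle marks Sfrp4, the only gene called by edgeR. Sfrp4, Akr1c18 and Ptgfr sit apart at the bottom of the plot, below all other genes tested.

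The 3 genes with the lowest log2 fold changes of all 11317 were genes of the luteal programme. Sfrp4 encodes a secreted frizzled-related protein, an antagonist of WNT ligands that is abundant in luteal cells. It is ENSMUSG00000021319 and lies at chr13:19807274-19817164 (GRCm39). Sfrp4 was at 1.29, 0.431, 1.73 and 2.19 CPM in db/db and at 20.6, 26.9, 33.2 and 26.3 CPM in CT db. The highest db/db library thus lay far below the lowest CT db library. The log2 fold change was -4.16 ± 0.34 (SE, n = 4 and 4), with an adjusted p of 0.000644 in edgeR. In pooled counts there were 15 in db/db and 414 in CT db, a rate 18.1 times higher in CT db (95% interval from 10.9 to 32.7, exact binomial, counting error only). Sfrp4 was called with every single library left out, and its adjusted p was 0.747 in 1 fit of all 14 libraries. In the ob model, whose libraries are separate from these, the log2 fold change of Sfrp4 was -6.31 (unadjusted p = 0.000389 in the edgeR fit of all 14 libraries).

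Ptgfr, the prostaglandin F2α receptor through which luteal regression is triggered, is ENSMUSG00000028036 at chr3:151502139-151543267 (GRCm39). It had 0, 0, 0 and 1 counts in db/db and 13, 90, 19 and 18 counts in CT db. In CPM these were 0, 0, 0 and 0.313 against 3.67, 19.4, 5.25 and 4.93. All 4 CT db libraries held the transcript and db/db nearly none. The pooled rate was 91.9 times higher in CT db, with a counting interval from 16.2 to 3657, and the adjusted p in edgeR was 0.221. Akr1c18 encodes 20α-hydroxysteroid dehydrogenase, the enzyme that inactivates progesterone when the corpus luteum regresses. It is ENSMUSG00000021214 at chr13:4182614-4200672 (GRCm39). Akr1c18 was at 0.861, 0.862, 1.30 and 0 CPM in db/db and at 3.39, 3.66, 37.6 and 6.85 CPM in CT db. The groups did not overlap, although CT db 3 held most of the control signal. The log2 fold change was -4.11 ± 1.01 (SE, n = 4 and 4; adjusted p = 0.382 in edgeR), and it was -2.66 without CT db 3. Its neighbour Akr1c13, of the same enzyme family, was under the filter, with 2, 0, 2 and 4 counts in db/db and 59, 21, 11 and 10 in CT db. Members of this family resemble each other in sequence, so reads may have been divided between them. In the ob model the log2 fold changes of Ptgfr and Akr1c18 were -9.60 and -4.09, and that of Akr1c13 was -0.73.

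The RefSeq promoters of Ptgfr and Akr1c18 (GRCm38.p6, from 250 bases before to 50 bases after the transcription start, written along the gene's strand) are shown because these genes shared the pattern of Sfrp4. Capitals mark the nuclear receptor half-site AGGTCA on either strand. The Ptgfr promoter is at chr3:151837479-151837778 on the minus strand and the Akr1c18 promoter at chr13:4150597-4150896 on the minus strand.
Ptgfr: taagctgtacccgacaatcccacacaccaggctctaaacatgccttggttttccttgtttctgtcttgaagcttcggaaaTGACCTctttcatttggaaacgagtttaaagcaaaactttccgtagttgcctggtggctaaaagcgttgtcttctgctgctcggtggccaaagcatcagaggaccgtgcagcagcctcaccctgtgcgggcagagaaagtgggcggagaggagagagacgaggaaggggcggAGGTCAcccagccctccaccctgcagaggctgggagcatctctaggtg
Akr1c18: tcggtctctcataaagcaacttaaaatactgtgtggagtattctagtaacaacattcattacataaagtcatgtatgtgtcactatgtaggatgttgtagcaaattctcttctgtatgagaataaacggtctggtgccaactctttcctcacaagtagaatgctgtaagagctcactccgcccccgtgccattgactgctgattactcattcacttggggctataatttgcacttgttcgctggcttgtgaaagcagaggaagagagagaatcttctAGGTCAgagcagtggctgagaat
The half-site began at position -170 on the opposite strand and at position 3 on the gene's strand in Ptgfr, and at position 28 in Akr1c18, counting the transcription start as 1. AGGTCA occurs in 16.3% of 32851 promoter windows of this length, so it is common. The longer site CAAGGTCA of the NR5A receptors, which drive steroidogenic genes, includes the half-site and occurs in 1.56% of the windows. The cAMP response element TGACGTCA occurs in 1.79%. Neither was found in these 2 windows. The promoter window of Akr1c13 was also searched, and it held neither the half-site nor either of the longer sites.

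The other luteal and prostaglandin genes did not share this size of difference. Of 26 genes on the list, 16 were tested. There were 4 lower and 1 higher at an unadjusted p under 0.05 (31.25%, against 7.59% of all genes). Without overlap 3 were lower (Sfrp4, Ptgfr and Akr1c18), which is 18.75%, against 2.32% of all genes. The list median was -0.07. Hpgd, which degrades prostaglandins, had a log2 fold change of -0.42 ± 0.18 (SE, n = 4 and 4). The luteinising hormone receptor gene Lhcgr was at 28.4, 6.46, 1.30 and 11.3 CPM in db/db and at 11.3, 68.5, 8.84 and 19.7 CPM in CT db, and its groups overlapped. Its log2 fold change of -1.21 was -0.17 without CT db 2. Timp3, a metalloproteinase inhibitor, lay the other way at 1.36 ± 0.52 (SE), and at 0.78 without db/db 1. In pools of cells, fewer luteinising cells and less transcript per cell cannot be told apart. The paper's histology describes db/db and ob/ob ovaries as lacking corpora lutea, with fewer antral and more atretic follicles than controls. Whether luteal cells entered the CT db pools was not tested.

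**Figure D2:**
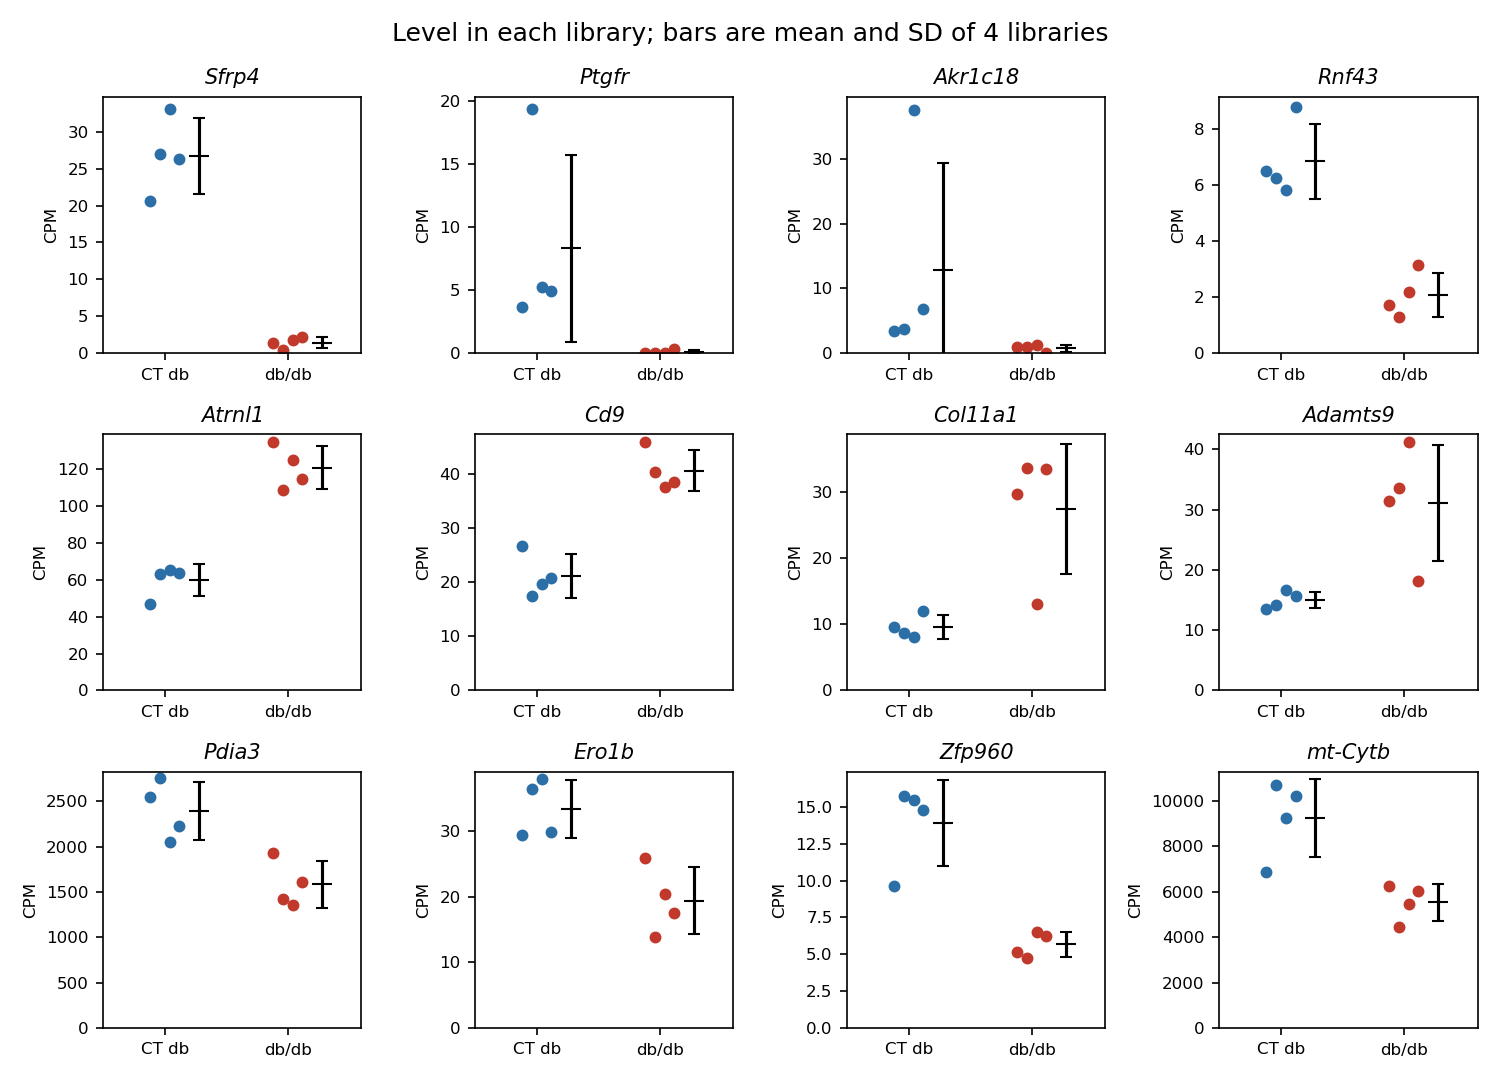
Level of 12 genes in each library (CPM, vertical axis from 0), with CT db in blue and db/db in red. Bars are the mean and SD of 4 libraries, and where the SD exceeds the mean the bar ends at 0. All 12 genes are among the 4.12% of tested genes whose groups do not overlap. In every panel the 4 db/db points therefore lie on one side of the 4 CT db points.

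The genes of steroid production lead from cholesterol to progesterone, androgen and oestradiol. Of 25 genes, 21 were tested, with a median of -0.10, and 3 were lower and 1 higher at an unadjusted p under 0.05 (19.05%, against 7.59% of all genes). The lower ones were Akr1c18, Hsd17b12 (-0.54) and Cyp1b1 (-0.50), of which only Akr1c18 had groups without overlap. Cyp17a1, the theca enzyme that makes androgen, was the 1 that was higher. It was at 258, 21.5, 9.97 and 15.4 CPM in db/db and at 3.39, 0.431, 11.9 and 31.0 CPM in CT db. Thus db/db 1 was far above all others, and the log2 fold change of 2.72 became 0.43 without that library. Of the 33 tested cholesterol genes none had an unadjusted p under 0.05 (edgeR), with a median of -0.08 and library medians from -0.65 to 0.64 within db/db alone. Of the gonadotropin receptor and cAMP genes, 23 were tested, with 1 higher (4.35%, against 3.38% of all genes) and none lower. Their median was -0.02. Of 10 tested genes of ovulation and cumulus expansion none passed an unadjusted p of 0.05 in edgeR, and their median was 0.11 (-0.0042 without db/db 1).

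Genes of WNT signalling, which acts in follicle growth and luteinisation, had a median of 0.18 over 37 tested members of 65, which became 0.02 without db/db 4. There were 3 lower and 2 higher (13.5%), against 7.59% of all genes in either direction. Beside Sfrp4 the lower ones were Rnf43, a ubiquitin ligase that removes frizzled receptors from the membrane, and the receptor Fzd7. Rnf43 was at 1.72, 1.29, 2.17 and 3.13 CPM in db/db and at 6.49, 6.25, 5.80 and 8.77 CPM in CT db, with no overlap and a log2 fold change of -1.66 ± 0.37 (SE). Fzd7 was at 9.90, 11.6, 7.37 and 8.46 CPM in db/db and at 14.1, 12.7, 12.7 and 17.8 CPM in CT db. Its db/db values again lay below all CT db values. The 2 higher genes were the kinase Gsk3b (0.44 ± 0.18) and the receptor Fzd5 (0.88 ± 0.38), and both overlapped between groups. In genes of Notch and Hippo signalling, 3 were higher and 2 lower of 26 tested (19.2%, against 7.59% of all genes). Their median was -0.02. Tead2, a transcription factor of the Hippo pathway, was at 47.8, 40.5, 39 and 40.1 CPM in db/db and at 25.7, 22.8, 28.2 and 30.2 CPM in CT db. Mob1a, a cofactor of the Hippo kinases, lay lower by -0.38 ± 0.12 (SE), and neither gene overlapped between groups.

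Leptin signalling and JAK-STAT genes were indistinguishable between the groups. Of 33 genes, 28 were tested, with 14 higher, 14 lower and a median of 0.01. Only Stat2 had an unadjusted p under 0.05 in edgeR (3.57% of the list, against 7.59% of all genes). Stat2 mediates interferon rather than leptin signals. It was at 38.7, 36.2, 39.4 and 44.5 CPM in db/db and at 29.4, 31.0, 32.3 and 27.96 CPM in CT db, so the groups did not overlap. Insulin and IGF signalling genes had 5 higher and none lower of 30 tested, with a median of 0.10. These are 16.7%, against 3.38% of all genes that were higher, and 3 were without overlap (10%, against 1.8%). Igfbp2, a binding protein that holds IGFs, was at 31.4, 41.8, 24.7 and 30.4 CPM in db/db and at 16.9, 17.9, 15.5 and 23.03 CPM in CT db. The other 4 were the receptors Igf1r (0.50) and Igf2r (0.66), the mTORC1 activator Rheb (0.35) and the phosphatase Inppl1 (0.38). The latter 2 did not overlap. Leaving out db/db 2 brought the median of the list to 0.01.

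In the transforming growth factor family (inhibin, activin, AMH and BMP signalling) 3 genes were higher and none lower of 30 tested. This is 10%, against 3.38% of all genes higher, and the list median was 0.18 (0.08 without CT db 1). The 3 genes were the inhibitory Smads Smad7 (0.94 ± 0.28, SE) and Smad6 (1.22 ± 0.42), and the BMP target Id2 (0.79 ± 0.36, and 1.21 without CT db 3). Smad7 was at 39.6, 102, 92.7 and 91.5 CPM in db/db and at 30.8, 55.0, 36.2 and 47.4 CPM in CT db, with db/db 1 inside the control range. Among 19 tested transcription factors of GCs, 2 were higher (10.5%, against 3.38% of all genes) and none lower, with a median of 0.09. Foxl2, which holds ovarian cells in their fate, had a log2 fold change of -0.10 ± 0.20 (SE), and Esr2, the oestrogen receptor of GCs, 0.12 ± 0.19. Nr5a2, a nuclear receptor needed for luteinisation, was at 231 to 457 CPM in db/db and at 177 to 374 CPM in CT db.

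In genes of the matrix and of cell contacts the medians lay above 0, while the summed levels of the protease and the adhesion lists were lower in db/db on average. The antral follicle is enclosed by a basement membrane, and its GCs secrete proteases and proteoglycans that remodel it. Of 47 proteases and matrix regulators, 32 were tested, with a median of 0.29. There were 5 higher and 2 lower at an unadjusted p under 0.05 (21.9%, against 3.38% of all genes higher and 4.21% lower). The list summed to 4960 to 5173 CPM in db/db against 5087 to 5657 CPM in CT db. The library medians of this list were 0.25 to 0.43 in db/db, whereas CT db had -0.33 to 0.24, relative to the CT db mean. Adamts9, a protease that cleaves versican, was at 31.4, 33.6, 41.2 and 18.2 CPM in db/db and at 13.6, 14.2, 16.6 and 15.6 CPM in CT db. Pcolce, which enhances procollagen processing, was at 47.8, 19.8, 12.6 and 32.6 CPM in db/db and at 6.21, 10.1, 12.4 and 9.05 CPM in CT db. Neither gene overlapped between groups, Pcolce only just. On the lower side were Spon1, a matrix protein (-1.23 ± 0.31, SE), and Serpine2, a protease inhibitor secreted by GCs, which was at 2028, 1664, 1833 and 1908 CPM in db/db and 2652, 2425, 2217 and 2040 CPM in CT db. Of 44 collagen genes only 11 passed the filter, with a median of 0.36 and 2 higher (18.2%, against 3.38% of all genes). Col11a1, a fibrillar collagen chain, was at 29.7, 33.6, 13.0 and 33.5 CPM in db/db and at 9.60, 8.62, 8.01 and 12.1 CPM in CT db, again without overlap. Col6a3 was at 0.90 ± 0.39 (SE), and its groups overlapped. The collagens below the filter, 33 of 44, were not tested.

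Among laminins and other basement membrane genes 1 of 20 tested was higher (5%, against 3.38% of all genes), Nid2, which links laminin to collagen. Its log2 fold change was 1.44 ± 0.39 (SE), and its lowest db/db value of 5.17 CPM lay just above the highest CT db value of 4.39 CPM. The list median of 0.10 became -0.11 without db/db 1. Genes of junctions and adhesion had a median of 0.22 over 29 tested, which was 0.10 without CT db 2 and 0.08 without CT db 2 and db/db 1. There were 3 higher (10.3%, against 3.38% of all genes) and none lower. Their sum was 15896 to 18802 CPM in db/db against 15482 to 24474 CPM in CT db, most of it from the gap junction gene Gja1, whose mean was 13631 CPM in db/db against 17003 CPM in CT db. Cd9, a tetraspanin, was at 46.0, 40.5, 37.7 and 38.5 CPM in db/db and at 26.8, 17.5, 19.6 and 20.8 CPM in CT db. Nectin1, an adhesion receptor, was at 56.8, 99.1, 116.1 and 46.7 CPM against 36.4, 32.8, 32.9 and 41.9 CPM. The tetraspanin Cd82 (0.92 ± 0.29, SE) overlapped between groups, and Cd9 and Nectin1 did not. Of 25 tested heparan sulfate enzymes, 1 was higher and 1 lower (8%, against 7.59% of all genes), with a median of 0.06. In the small attractin family with MGRN1, all 5 members were tested and all 5 were higher, with a median of 0.25. Atrnl1, attractin-like 1, had the second smallest p of all genes (adjusted p = 0.1 in edgeR). It was at 134.7, 108.6, 125.2 and 114.7 CPM in db/db and at 46.9, 62.9, 65.2 and 63.9 CPM in CT db. The db/db level was 2.02 times as high, and the ob model gave a log2 fold change of 0.77 for the same gene.

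Stromal and mural cells also express matrix genes, so their markers were set beside this result. The summed level of 14 stromal fibroblast markers was 29.5 to 132 CPM in db/db and 33.3 to 65.8 CPM in CT db, with 6 tested and Thy1 at 0 in every library. The 14 pericyte and smooth muscle markers summed to 38.1 to 86.5 CPM in db/db and to 18.5 to 45.9 CPM in CT db. Only 3 of these passed the filter. Among them Pdgfrb, a receptor of mural cells, was at 15.1, 24.99, 11.3 and 21.3 CPM in db/db and at 4.24, 2.37, 4.42 and 8.22 CPM in CT db without overlap. The paper instead describes PDGFRB as a receptor of GCs for PDGF-BB from the oocyte. Which cells gave the Pdgfrb reads was not tested. The 10 theca and interstitial markers summed to 931 CPM in db/db 1, to 193 to 299 CPM in the other db/db libraries and to 128 to 372 CPM in CT db. The theca hormone gene Insl3 had counts in db/db 1, 2 and 3 and none in CT db. The part of these cells in the matrix genes was not tested. With single libraries left out in turn the median of the protease list was between 0.16 and 0.38, and without db/db 1 that of the collagens was 0.23.

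**Figure D3:**
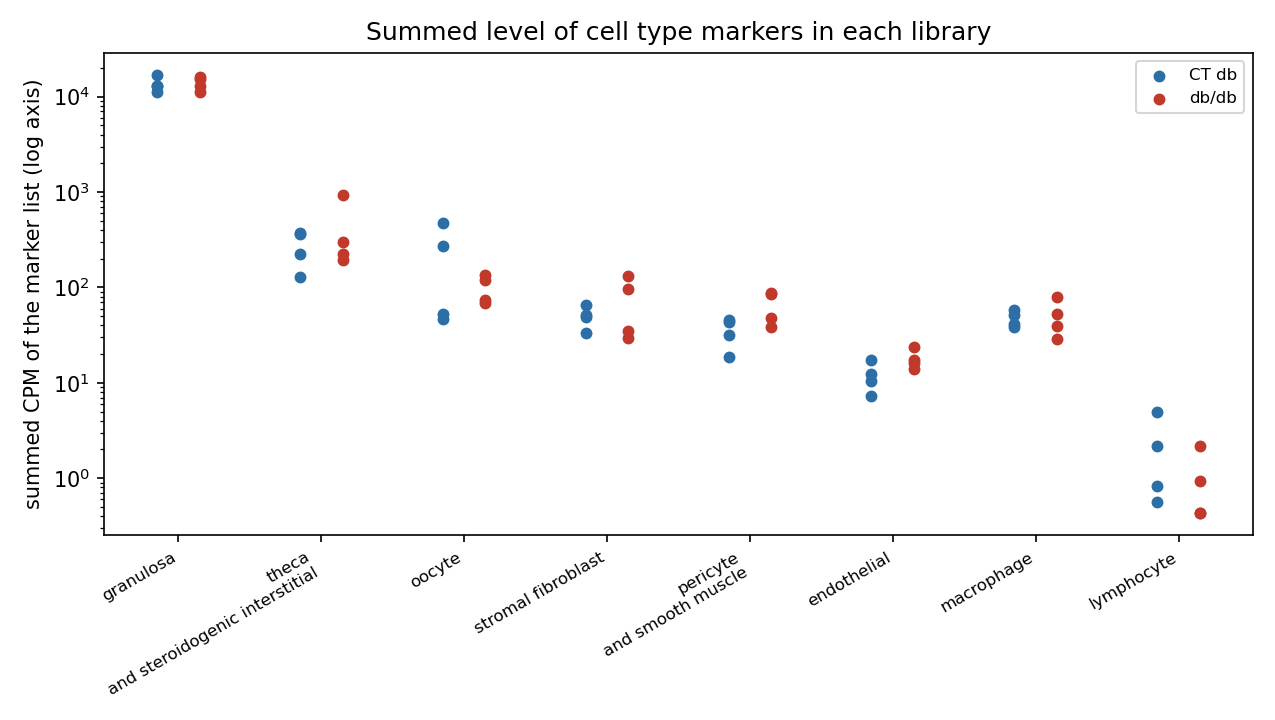
Summed level of markers of 8 cell types in each library (CPM, log axis), with CT db in blue and db/db in red. GC markers exceed all others in every library, db/db 1 stands out for theca markers, and CT db 2 and CT db 3 stand out for oocyte markers.

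Markers of other cell types were low and uneven. The 20 oocyte markers summed to 68.4 to 135 CPM in db/db and to 47.2, 473, 273 and 52.4 CPM in CT db 1 to 4. The oocyte transcript Nlrp14 accordingly had a log2 fold change of -2.84 ± 1.10 (SE) with overlapping groups, and of -1.58 without CT db 2. Zp3, of the zona pellucida, reached 20.04 CPM in CT db 2 and 5.20 CPM in db/db 3. The median of the 8 tested oocyte markers was -1.49, and it was -0.69 without CT db 2. Of these 8, 7 were lower and 1 higher, with 1 of each at an unadjusted p under 0.05 in edgeR (25%, against 7.59% of all genes). The higher one was Kit, at 0.62 to 0.95 with single libraries left out. Macrophage markers summed to 29.0 to 79.6 CPM in db/db and to 38.4 to 57.8 CPM in CT db, and endothelial markers to 14.1 to 23.7 and 7.34 to 17.4 CPM. Lymphocyte markers summed to at most 4.96 CPM in any library, and Cd3e, Cd3g and Cd79a had no count in any of them. Erythroid markers summed to at most 17.8 CPM, surface epithelium markers to 83.5 CPM in db/db 1 and to 30.8 to 44.5 CPM elsewhere, and adipocyte markers to 209 to 378 CPM, with Adipoq, Cidec, Lep and Retn at 0.

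Protein folding in the endoplasmic reticulum (ER), on which secretory cells such as GCs depend, lay towards lower levels. Of 41 genes of the unfolded protein response and ER folding 39 were tested, with a median of -0.11, 26 lower and 13 higher. At an unadjusted p under 0.05, 4 were lower and none higher (10.3%, against 4.21% of all genes lower). The same 4 were lower without overlap, which is 10.3% of the tested list, against 2.32% of all genes. Pdia3, a disulphide isomerase that folds glycoproteins, was at 1933, 1425, 1361 and 1613 CPM in db/db and at 2548, 2758, 2051 and 2227 CPM in CT db. Ero1b, the oxidase that recharges such isomerases, was at 25.8, 13.8, 20.4 and 17.5 CPM in db/db and at 29.4, 36.4, 37.9 and 29.9 CPM in CT db. The log2 fold changes were -0.60 ± 0.16 for Pdia3, -0.79 ± 0.21 for Ero1b, -0.40 ± 0.14 for Erp44, which retains folding enzymes in the early secretory path, and -0.34 ± 0.13 for the chaperone Hyou1 (SE, n = 4 and 4). The adjusted p in edgeR was 0.413 or more for all 4. The summed level of the list was 13197 to 14535 CPM in db/db and 14468 to 17695 CPM in CT db. The list median was between -0.15 and -0.0024 when single libraries were left out, the latter without CT db 1. Without CT db 2, 4 were lower and 1 higher.

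The promoters of Pdia3 and Ero1b (RefSeq, GRCm38.p6) are shown as the 2 genes of this group with the smallest p. Capitals mark the CCAAT box and, where present, the whole ER stress element (a CCAAT box, a spacer of 9 bases and CCACG), the site through which ATF6 and XBP1 act, which includes a CCAAT box. They lie at chr2:121413652-121413951 and chr13:12565633-12565932, both on the plus strand.
Pdia3: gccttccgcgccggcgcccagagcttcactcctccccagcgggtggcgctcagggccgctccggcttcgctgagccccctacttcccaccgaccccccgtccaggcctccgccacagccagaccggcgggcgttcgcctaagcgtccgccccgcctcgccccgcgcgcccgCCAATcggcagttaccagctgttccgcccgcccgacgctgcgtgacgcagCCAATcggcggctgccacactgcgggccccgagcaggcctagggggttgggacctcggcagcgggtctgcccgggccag
Ero1b: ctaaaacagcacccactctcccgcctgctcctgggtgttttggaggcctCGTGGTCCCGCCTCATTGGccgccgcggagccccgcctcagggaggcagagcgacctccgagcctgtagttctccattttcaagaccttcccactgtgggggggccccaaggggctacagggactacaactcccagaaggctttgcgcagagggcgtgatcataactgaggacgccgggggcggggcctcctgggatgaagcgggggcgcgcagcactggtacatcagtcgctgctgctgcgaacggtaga
Ero1b held the ER stress element on the opposite strand from position -201, and 0.119% of all 32851 windows held it on either strand. Pdia3 held 2 CCAAT boxes, at positions -79 and -29, and 37.4% of all windows held at least 1. These are matches of letters and not measured sites.

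Heat shock proteins and other chaperones had a median of -0.14 over 36 tested, with 26 lower and 10 higher, which was -0.03 without CT db 1. At an unadjusted p under 0.05, 3 were lower and 1 higher (11.1%, against 7.59% of all genes). Hspe1, the mitochondrial co-chaperonin, was at 120.5, 186.6, 136.1 and 166.7 CPM in db/db and at 197.4, 275.7, 218.0 and 197.1 CPM in CT db. Vbp1, a prefoldin subunit, was at -0.50 ± 0.18 (SE). Translation factors and tRNA synthetases had 5 lower and none higher of 79 tested (6.33%, against 4.21% of all genes lower). Their median was -0.05. Eif1ax, which scans for the start codon, was at 225, 183, 179 and 216 CPM in db/db and at 237, 363, 332 and 289 CPM in CT db, and its groups did not overlap. Iars1, the isoleucyl-tRNA synthetase, was at -0.52 ± 0.18. Cytosolic ribosomal protein genes lay the other way, with a median of 0.13 and 66 of 82 tested genes higher. At an unadjusted p under 0.05, however, only 3 were higher and 2 lower (6.10%, against 7.59% of all genes). Rps27 was at 0.47 ± 0.17 (0.31 without db/db 2) and Rpl22l1 at -0.46 ± 0.17 (SE). The median was 0.03 without db/db 2. The share of all counts in these genes was 3.58% ± 0.58 in db/db and 3.17% ± 0.18 in CT db (SD, n = 4 and 4; exact permutation p = 0.257, adjusted p = 0.549 over 6 library shares).

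Transcripts of the mitochondrial genome, which encode core subunits of the respiratory chain, lay lower by their median but not in every gene. Of 13 genes 8 were tested, with 5 lower, 3 higher and a median of -0.28. Their log2 fold changes went from -0.74 to 0.43. At an unadjusted p under 0.05, 2 were lower (25%, against 4.21% of all genes). mt-Cytb, of complex III, was at 6238, 4435, 5449 and 6042 CPM in db/db and at 6860, 10698, 9260 and 10247 CPM in CT db. mt-Co1, of complex IV, was at 15074, 9369, 7769 and 13512 CPM in db/db and at 14915, 26891, 14183 and 20230 CPM in CT db. The groups of mt-Cytb did not overlap and those of mt-Co1 did, and CT db 2 was highest in both. All mitochondrial genes together took 5.95% ± 0.51 of the counts in db/db and 7.74% ± 1.76 in CT db (SD, n = 4 and 4; exact permutation p = 0.114, adjusted p = 0.549). Without CT db 2 the list median was -0.10. The nuclear genes of the same complexes did not go with them. Complex I had a median of 0.08 over 45 tested, with 2 higher and 2 lower (8.89%, against 7.59% of all genes). Complexes II to V had a median of 0.10 over 58, with 3 higher and 1 lower (6.90%). Ndufb6 and Ndufaf4 of complex I were at -0.64 ± 0.15 and -0.44 ± 0.14, Uqcrb of complex III at -0.74 ± 0.16, and Atp5if1, the inhibitor of the ATP synthase, at 0.49 ± 0.15 (SE, n = 4 and 4). Their groups did not overlap. Mitochondrial ribosomal proteins had a median of -0.02 over 77, with 2 higher and 4 lower (7.79%, against 7.59% of all genes).

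Among growth and division genes, all 39 kinetochore and centromere genes were tested. Of these 5 were lower (12.8%, against 4.21% of all genes) and none higher, with a median of -0.09. Without CT db 2 and db/db 1, 5 were lower and 3 higher. Cenpq was at 47.3, 55.6, 62.0 and 71.4 CPM in db/db and at 81.6, 115.7, 89.5 and 105.0 CPM in CT db. Cenpk was at 99.8, 96.1, 83.2 and 115.6 CPM in db/db and at 134, 212, 141 and 171 CPM in CT db. Both are subunits of the inner kinetochore, and their groups did not overlap. The proliferation marker Mki67 lay the other way, at 0.70 ± 0.25 (SE), and Cdt1, which licenses replication origins, was at -0.51 ± 0.20 (-0.29 without CT db 1). Over 67 tested cell cycle and replication genes the median was -0.03, with 1 higher and 2 lower (4.48%, against 7.59% of all genes). Without CT db 2 and db/db 1 there were 4 higher and 7 lower. Whether the 2 lists differ was not tested. Of 26 tested BCL2 family and caspase genes 1 was higher (3.85%, against 3.38% of all genes), with a median of 0.09.

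Ubiquitin-conjugating enzymes had 4 lower and 1 higher of 32 tested, with a median of -0.08 (15.6%, against 7.59% of all genes). Of these 5, 4 were without overlap, and with a further gene 15.6% of the list were, against 4.12% of all genes. The library medians were -0.13 to -0.09 in db/db, whereas CT db had -0.04 to 0.04. Ube2q2 was at 72.3, 46.5, 36.8 and 55.5 CPM in db/db and at 77.4, 106.9, 79.3 and 91.0 CPM in CT db. The proteasome (49 tested, median 0.01), the spliceosome core (49, 0.03) and the ESCRT and vacuolar sorting genes (49, -0.04) each had 1 gene higher and 1 lower. This is 4.08% of each list, against 7.59% of all genes.

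Zinc finger genes named Zfp, most of which encode repressors with KRAB domains that silence transposons, stood out by number. Of 418 genes 329 were tested, of which 207 were lower and 122 higher, with a median of -0.12. At an unadjusted p under 0.05, 33 were lower (4.21% of all genes were) and 8 higher (3.38% were), together 12.5% against 7.59%. Without overlap 16 were lower and 3 higher, together 5.78% of the list, against 4.12% of all genes. The Zfp median was the lowest among 49 gene families defined by their symbol stem with at least 20 tested members. The next lowest was Ttc at -0.09 and the highest Cd at 0.19. Zfp960 was at 5.16, 4.74, 6.50 and 6.27 CPM in db/db and at 9.60, 15.7, 15.5 and 14.8 CPM in CT db. Zfp932 was at 45.2, 31.0, 34.2 and 41.0 CPM in db/db and at 62.7, 74.1, 62.7 and 56.5 CPM in CT db. Zfp125 was at 43.0, 31.0, 34.7 and 37.0 CPM against 57.6, 92.5, 63.3 and 75.1 CPM. All 3 were without overlap. Zfp423, which acts in BMP signalling, was higher at 1.07 ± 0.36 (SE). Many Zfp genes are near copies of each other and may share reads. The median GC content of their transcripts was 44.0%, against 49.4% over all tested genes. The result was smaller without CT db 2, the library that stood apart by base composition. Without CT db 2 the counts were 17 lower and 10 higher, and the median was -0.06.

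Base composition was therefore examined over all genes. When the tested genes were ranked by GC content of the transcript and divided into quintiles, the median log2 fold change went from -0.11 in the GC-poorest quintile over -0.03, 0.02 and 0.04 to 0.09 in the GC-richest. In the GC-poorest quintile 244 genes were lower and 39 higher at an unadjusted p under 0.05, and in the GC-richest 25 were lower and 103 higher. The tilt of each library, the median log2 level of the richest quintile minus that of the poorest relative to the CT db mean, was 0.11, 0.28, 0.24 and 0.09 in db/db. It was 0.18, -0.41, 0.21 and 0.02 in CT db. Thus CT db 2 alone had the opposite slope, and the other 3 CT db libraries lay among or near the db/db libraries (exact permutation p = 0.286, adjusted p = 0.429 over 3 such tilts). Without CT db 2 the GC-poorest quintile had a median of -0.03, with 139 lower and 77 higher, and the GC-richest one a median of 0.03, with 35 lower and 64 higher. The kinetochore and ER genes named here kept their direction without this library, and 5 and 4 of the respective lists were then lower.

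**Figure D4:**
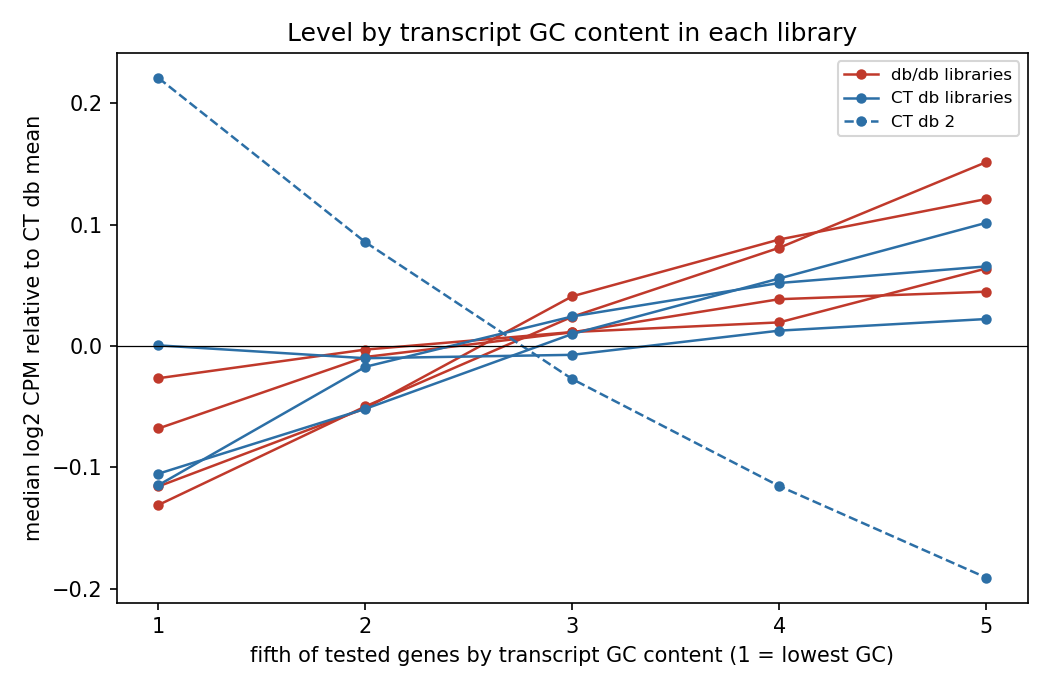
Median log2 CPM of genes in each quintile of transcript GC content, relative to the mean of CT db, for each library. The other 7 lines rise or stay level, and CT db 2 (dashed) runs from 0.22 in the GC-poorest quintile to -0.19 in the GC-richest.

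By expression level the picture was nearly flat. From the lowest to the highest quintile of mean CPM the median log2 fold change was 0.04, 0.03, 0.02, 0.00 and -0.02. The share of genes with an unadjusted p under 0.05 went from 6.10% to 9.58%. In the highest quintile (above 97.1 CPM) 152 of these were lower and 65 higher, and 85 were lower and 26 higher without overlap. Large differences were mostly at low levels: 145 of the 182 genes with a log2 fold change of 1 or more in either direction were in the lowest quintile (2.24 to 10.5 CPM), where the median SD over 4 libraries was 0.50 on the log2 scale in db/db and 0.47 in CT db. After thinning to equal library totals, which did not equalise the share taken by 18S genes, 45.03% to 47.5% of the genes in each quintile had the larger SD in db/db, so db/db did not have the larger SD in most genes. The tilt between the highest and lowest quintile gave an exact permutation p of 0.114 (adjusted p = 0.343). By transcript length the medians were 0.02, -0.03, -0.02, 0.01 and 0.07 from the shortest to the longest quintile, and in the longest quintile 126 genes were higher and 64 lower. The corresponding tilt had an exact permutation p of 0.571. The smallest p that 4 against 4 libraries allow in this test is 0.0286.

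Inflammatory genes, which obesity raises in many tissues, passed the filter in unequal numbers. Of 18 NLRP3 inflammasome genes 7 were tested, with a median of 0.31 (0.12 without db/db 2) and none at an unadjusted p under 0.05 in edgeR. The NF-κB and cytokine list had 1 higher (5%, against 3.38% of all genes) and none lower of 20 tested, with a median of -0.04. Interferon response and antigen presentation genes had 6 higher and 1 lower of 33 tested (21.2%, against 3.38% higher and 4.21% lower of all genes). Their median was 0.14, and 0.38 without CT db 3. Ifngr2, a chain of the interferon γ receptor, was at 148, 179, 164 and 178 CPM in db/db and at 100.5, 136, 130 and 143 CPM in CT db, without overlap. Immediate early genes, which respond within minutes to hormones and to handling of cells, had a median of 0.23 over 26 tested. Only Jund was higher (0.95 ± 0.39, SE), which is 3.85% of the list, against 3.38% of all genes. The median was 0.10 without CT db 1 and 0.66 without CT db 4. Their library medians went from -0.23 to 0.84 in db/db and from -0.65 to 1.01 in CT db and so overlapped widely.

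Glycolysis and pentose phosphate genes had a median of 0.00 over 33 tested, with 1 lower (3.03%, against 4.21% of all genes). This median was -0.16 without CT db 2 and 0.13 without CT db 3. Fatty acid and triglyceride genes had a median of 0.02 over 48, with 2 higher and 2 lower (8.33%, against 7.59% of all genes). Cept1, which completes the synthesis of phosphatidylcholine, was at 142, 124, 110.5 and 167 CPM in db/db and at 186, 325, 214 and 255 CPM in CT db. Acsl5, which activates fatty acids, was at -0.71 ± 0.24 (SE), and in both genes the groups did not overlap. Fabp3, a fatty acid carrier also listed among theca markers, was highest in db/db 1 at 29.3 CPM. Of 42 tested antioxidant and glutathione genes 2 were higher and 2 lower (9.52%, against 7.59% of all genes), with a median of 0.04. Among single genes outside these lists, Tpt1, a growth-related tumour protein, was at 712.5, 663.6, 632.6 and 501.6 CPM in db/db and at 881, 1076, 1291 and 1288 CPM in CT db. Gulo, of vitamin C synthesis, was 0.85 ± 0.19 higher and Gucy1b1, a subunit of the nitric oxide receptor, was at -1.39 ± 0.31 (SE), and none of the 3 overlapped between groups.

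**Figure D5:**
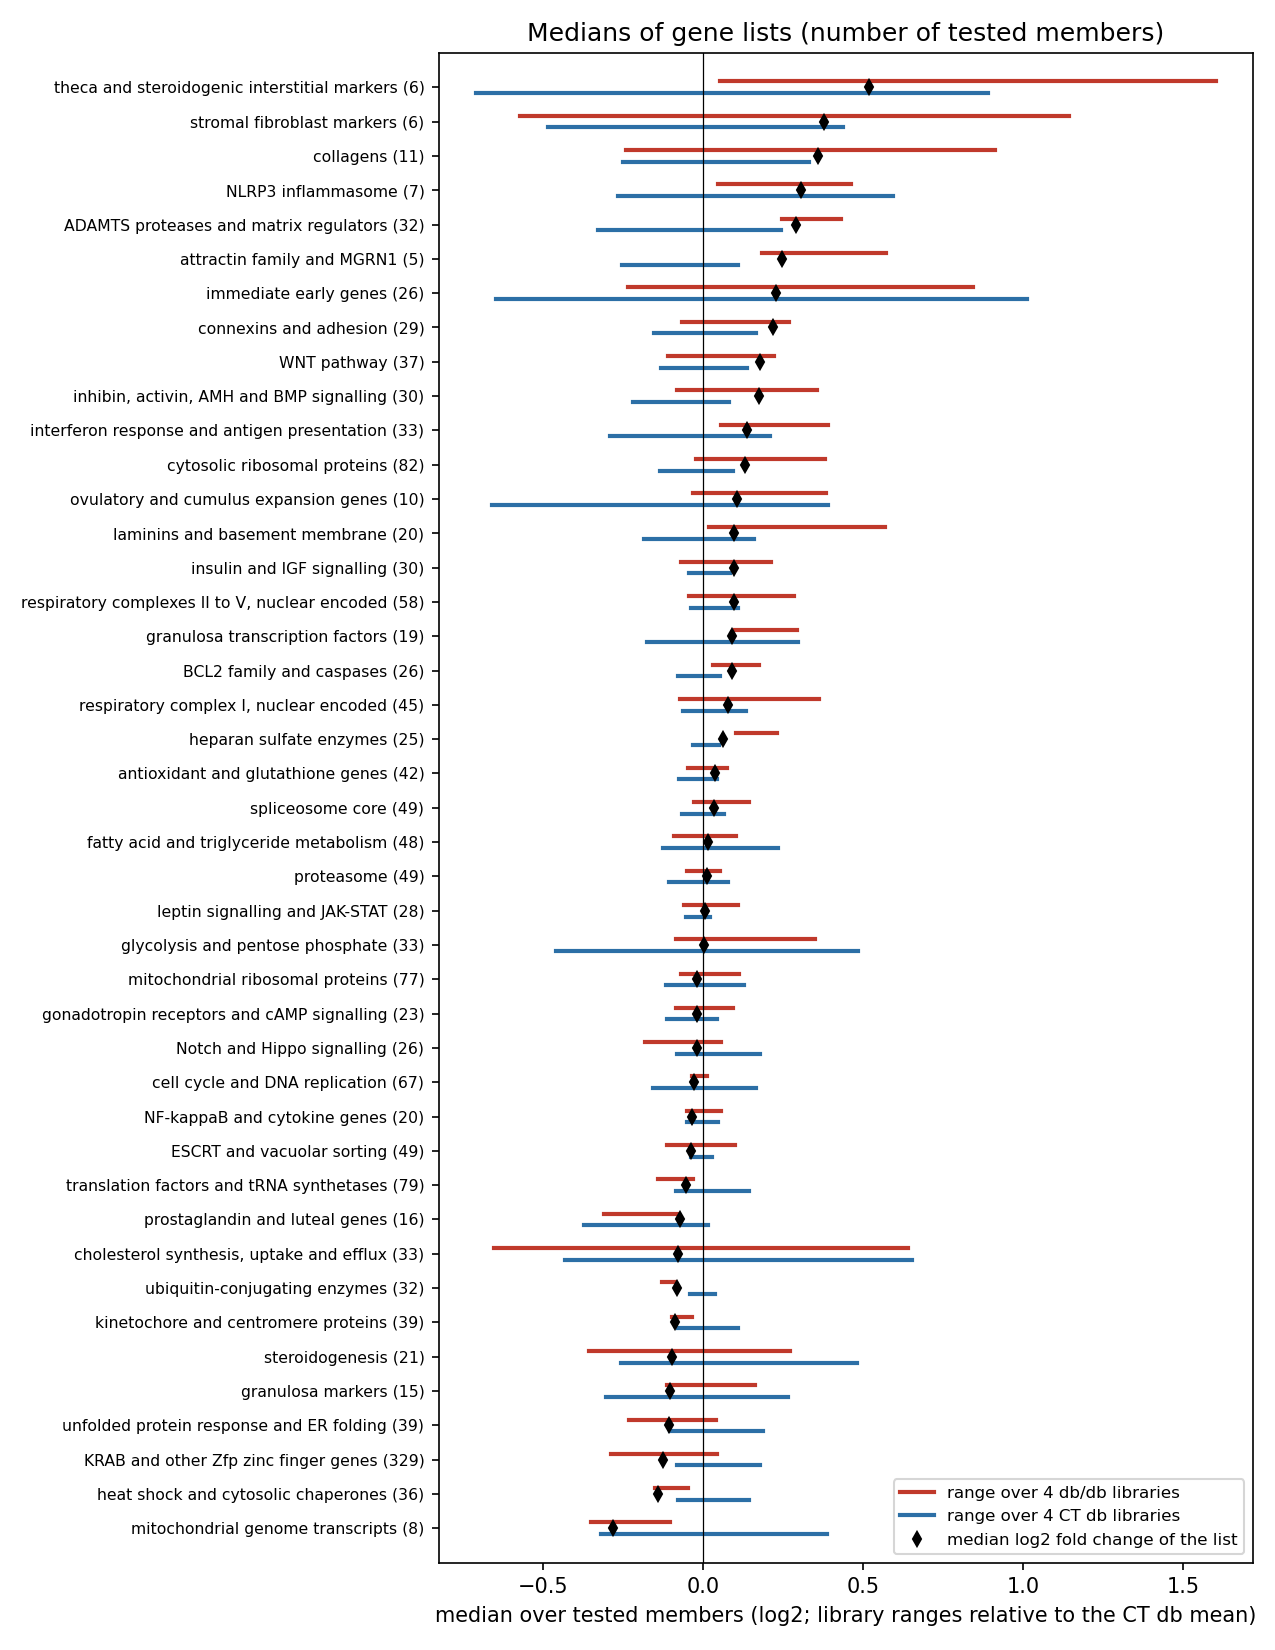
Median log2 fold change of the tested members of each gene list with at least 5 of them (diamonds; oocyte markers are left out for their wide range), with the range of library medians in db/db (red) and CT db (blue) relative to the CT db mean. Most ranges overlap, and those of the ubiquitin-conjugating, heparan sulfate, attractin and matrix protease lists do not.

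The genes around Lepr on chromosome 4 were examined because a congenic line carries donor DNA beside the mutation. Within 20 Mb of Lepr (chr4:101574601-101676237, GRCm39) 172 genes were tested, with 6 higher and 6 lower at an unadjusted p under 0.05. This is 6.98%, against 7.59% of all genes. Without overlap 2 were higher and 5 lower, together 4.07%, against 4.12% of all genes. Within 5 Mb the share was 12.5% of 32 genes. The nearest gene without overlap was Ube2u, at -1.17 Mb (towards the start of the chromosome), which encodes a ubiquitin-conjugating enzyme. Ube2u was at 0.861, 2.15, 0.433 and 0.627 CPM in db/db and at 5.93, 13.1, 3.87 and 3.56 CPM in CT db. Its pooled rate was 7.16 times higher in CT db (95% interval from 3.75 to 15.3, counting error only), and the ob model gave a log2 fold change of 0.93. Nfib, a transcription factor at -18.95 Mb, was at 7.74, 34.0, 9.10 and 12.8 CPM in db/db and at 1.41, 3.88, 3.87 and 2.47 CPM in CT db. The others without overlap were the nucleotide kinase gene Cmpk1 (-0.75 ± 0.18), Kti12 (-0.61 ± 0.19), Mmachc (-0.39 ± 0.15), Nasp (-0.27 ± 0.13) and Eps15 (0.37 ± 0.16). Kank4, at -2.87 Mb, was at -1.47 ± 0.47 (SE) with overlapping groups.

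The same contrast was set beside that of the ob model in 1 fit of 14 libraries. Of 12586 genes tested for a difference between the 2 mutant effects none was called by edgeR, and 1021 had an unadjusted p under 0.05. Some genes, picked here for opposite values, are given as examples. Ndufb6 had a log2 fold change of -0.64 here and 0.67 in the ob model, Zfp932 -0.76 and 1.06, and Cenpk -0.74 and 0.39. Sfrp4, Ptgfr, Akr1c18, Col11a1 and Atrnl1 had the same direction in both models. Pdia3 was at -0.60 here and 0.24 in the ob model, and Pcolce at 1.57 and -0.99.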

How the data were processed

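RNA-seq of 8 GC libraries was analysed, 4 db/db and 4 CT db. The authors deposited raw read counts per gene for all 14 libraries, without normalization. Their methods describe cutadapt, STAR with GRCm39 and featureCounts. The submitters' processing notes instead name FastQC, Trim Galore 0.6.2, HISAT2 2.1.0 and GRCm38. Settings for strand and multiply mapping reads are not given in the sources used here, so overlapping or similar genes may share reads. Columns were assigned to groups by name, not to single samples, and libraries are numbered in table order. No pair of columns was identical.

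Symbols and GRCm39 coordinates came from GENCODE M39 by identifier (54749 of 55414), and promoters from RefSeq. edgeR 4.0.16 in R 4.3.3 filtered genes (filterByExpr, minimum count 10, minimum total 15), scaled by TMM and ran quasi-likelihood tests on the 8 libraries. An adjusted p of 0.05 or less was called. Each SE of a log2 fold change is its absolute value divided by the square root of the quasi-likelihood F. It is therefore approximate, above all for genes with few counts. Alternatives were DESeq2 1.42.0, voom in limma 3.58.1, other scalings and filters, thinning, 1 fit of all 14 libraries and each library left out. CPM used scaled library totals, log2 CPM a prior count of 2, and intervals without molecular identifiers cover counting error only. Single library measures were compared by two-sided exact permutation tests. The scripts were tested on simulated data.

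The members and gene lists were chosen with earlier results of these data known, so no list test was run. Lists are described by counts and medians. Named genes were Lep, Lepr, GC markers, the 20 genes with the smallest p, and in each list the 2 with the smallest p and the 2 with the highest level, of which a part is printed. Akr1c13, Hpgd, Lhcgr, Fzd7, Fzd5, Rheb, Inppl1, Erp44, Hyou1, Timp3, Spon1, Cd82, Id2, Zfp423, Insl3, Zp3, Cmpk1, Kti12, Mmachc, Eps15, Nasp, Kank4 and Cyp1b1 were chosen after their values were seen, as were the GC quintiles and the half-site.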

Additional observations from a re-analysis of the deposited data

Results flagged for a closer look

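In 18 of 292 groups of 4 libraries examined, 1 library lay far from the other 3 of its group. Chance marks about 1 in 20 such groups. db/db 1 was the library concerned in 7 of the 18.

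In db/db 1 Cyp17a1 was at 258 CPM against 9.97 to 21.5 CPM in the other db/db libraries, and the theca and interstitial markers summed to 931 CPM against 193 to 299. The surface epithelium markers summed to 83.5 CPM against 30.8 to 37.3. Genes of the shortest length quintile held 34.1% of its counts against 24.3% to 25.9%, and 18S ribosomal RNA genes held 12.8% against 1.10% to 1.98%. Iars1 was at 100.7 CPM against 72.4 to 76.7, and Smad7 at 39.6 CPM against 91.5 to 102.

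Cyp19a1 was highest in db/db 3, at 104.9 CPM against 6.58 to 23.3, and also in CT db 3, at 106.9 CPM against 15.7 to 29.9. Kit was lowest in db/db 3, at 26.4 CPM against 51.7 to 54.2. Ptgfr was at 0.313 CPM in db/db 4, which is 1 count, against 0 in the other db/db libraries, and at 19.4 CPM in CT db 2 against 3.67 to 5.25.

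Akr1c18 was at 37.6 CPM in CT db 3 against 3.39 to 6.85 in the other CT db libraries. In CT db 1 Atrnl1 was lowest, at 46.9 CPM against 62.9 to 65.2, Zfp960 was lowest, at 9.60 CPM against 14.8 to 15.7, and the translation factors and tRNA synthetases summed to 20274 CPM against 17677 to 18094. In CT db 4 Gulo was at 34.8 CPM against 20.3 to 22.4, and the Notch and Hippo genes summed to 1745 CPM against 1193 to 1284.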

How the results depend on the processing

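No paired analysis was possible because the column names of the count table carry none of the replicate numbers of the labels. The number of genes called was 1 in the edgeR fit of the 8 libraries, 44 with DESeq2 on the same genes, 37 with DESeq2 on all detected genes, 2 with library totals only, 270 with no filter on low counts (2085 genes then had an unadjusted p under 0.05), 0 with at least 10 counts in every library (Sfrp4 was not tested there, and 785 genes had an unadjusted p under 0.05) and 0 in 1 fit of all 14 libraries (750 genes). It was 1 to 4 with single libraries left out, the latter without db/db 3. The number at an unadjusted p under 0.05 was 538 without db/db 2 to 1348 without db/db 1. Without both CT db 2 and db/db 1, a setting chosen after seeing the data, it was 1343. Of genes at an unadjusted p under 0.05, 44.5% were higher in db/db with TMM and 64.6% with library totals only, where the median of all genes was 0.08. In the fit of 14 libraries Sfrp4 had an adjusted p of 0.747, and elsewhere it was called wherever it was tested. The causes were not tested. With library totals only, list medians were 0.072 for leptin signalling, 0.033 for NF-κB, 0.033 for ESCRT, -0.015 for ubiquitin-conjugating enzymes, 0.15 for BCL2 genes, 0.10 for antioxidant genes and 0.13 for heparan sulfate enzymes. Quintile medians were then 0.10, 0.095, 0.085, 0.069 and 0.047 by level, 0.087, 0.032, 0.040 and 0.074 in length quintiles 1 to 4, and 0.035, 0.088 and 0.11 in GC quintiles 2 to 4. With no filter, list medians were -0.086 for NF-κB, 0.13 for pericyte, -1.43 for erythroid and 1.41 for surface epithelium markers, and quintile medians were 0.000995, -0.011, -0.026 and -0.049 for levels 2 to 5, -0.0225 for length 4 and -0.00746 for GC 3. With at least 10 counts in every library the oocyte markers had a median of 0.73 and the lowest level quintile 0.092. Endothelial markers were at 0.63 in the fit of 14 libraries, and the prostaglandin and luteal list at 0.088 after thinning. Without CT db 2 and db/db 1, medians were 0.14 for gonadotropin and cAMP genes, -0.015 for the kinetochore, 0.15 for BCL2 genes, -0.042 for antioxidant genes, -0.21 for laminins, -0.14 for macrophage markers, -0.077 for length quintile 2 and 0.0017 for GC quintile 3. In the window of 5 Mb around Lepr the share at an unadjusted p under 0.05 was 12.5%.

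With single libraries left out, medians ranged from -0.013 to 0.020 for level quintile 4, -0.024 to 0.052 for antioxidant genes, 0.071 to 0.17 for BCL2 genes, -0.065 to 0.82 for endothelial markers, -0.035 to 0.064 for gonadotropin genes, -0.19 to -0.031 for chaperones, 0.063 to 0.13 for heparan sulfate enzymes, 0.12 to 0.38 for interferon genes, -0.086 to -0.024 for the kinetochore, -0.015 to 0.062 for leptin signalling, -0.054 to 0.089 for NF-κB, -0.12 to 0.097 for Notch and Hippo, -0.25 to -0.020 for luteal genes, -0.21 to 0.21 for steroidogenesis, -0.11 to -0.046 for ubiquitin-conjugating enzymes and 0.022 to 0.18 for WNT genes. Cyp19a1 (-0.17 with all libraries) turned positive without db/db 1 (0.046), db/db 2 (0.009), db/db 4 (0.20) or CT db 3 (0.80), over a range from -1.40 to 0.80. Foxl2 turned positive without CT db 1, over a range from -0.24 to 0.068. Of the values of single named genes, 995 under other settings and 671 with a library left out kept their direction and side of the threshold, and 85 under other settings passed it only there.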
